A study of Homo sapiens with 15 samples.

Results

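The data described here are 6 of the 15 arrays of an EGF time course in H1975 cells: 1 array each at 4 h, 6 h and 8 h, set against 2 arrays at 0.5 h and 1 array at 1 h. The arrays were chosen by the hour in their titles, and the comparison asks which transcripts of the first hour had fallen by 4 to 8 h and which had come up by then. H1975 is an established human lung adenocarcinoma cell line. The cells of all 6 arrays were deprived of serum overnight and then given 50 ng/ml epidermal growth factor (EGF). By their labels the windows differ in the time after EGF, and that time and the time without serum cannot be told apart. Unstimulated cells were not analysed here, so no value below is an induction over untreated cells.

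EGF binds its receptor EGFR and activates the ERK kinase cascade, which within minutes switches on immediate-early genes through factors that are already present in the cell. Many of these genes code for transcription factors of the EGR, FOS and JUN families, and their transcripts are short-lived. A following set of genes codes for phosphatases and receptor inhibitors that dampen the pathway and for secreted ligands and cytokines that carry the signal to neighbouring cells.

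Expression was measured with Affymetrix Human Gene 2.0 ST arrays and is given as the SCAN score, a standardised score on a log scale that is computed for each array alone. A difference is the mean score at 4 to 8 h minus that at 0.5 to 1 h (n = 3 arrays each). It is not a fold change, because 1 unit of the score is not a stated fold. Each array was treated as a replicate of its window although the hours differ, and the p-values therefore measure the spread between single arrays of neighbouring hours. Array medians over all probe sets lay between 0.0663 and 0.0787 at 4 to 8 h and between 0.0728 and 0.0789 at 0.5 to 1 h. Across genes, which are not independent replicates, arrays of the same window correlated at 0.996 to 0.997 and arrays of different windows at 0.994 to 0.995. The first principal component of the 6 arrays held 40.3% of the variance and separated the windows, with positions of 4.4, 3.17 and 3.13 at 4, 6 and 8 h, against -3.64 and -3.49 at 0.5 h and -3.57 at 1 h. The second component (18%) put the 4 h array (3.23) beside the 1 h array (3.3), while the others lay below 0. Of 11 lung epithelial markers 9 were measured, among them EPCAM, KRT18 and NKX2-1. Their summed score was 11.5 to 11.7 at 4 to 8 h and 11.2 to 11.7 at 0.5 to 1 h. Of 10 listed blood cell markers only CD14 and LYZ were measured. They summed to 0.0486 to 0.163 at 4 to 8 h and to 0.0372 to 0.0889 at 0.5 to 1 h. Of 10 listed fibroblast and endothelial markers 3 were measured, and they summed to less than 0 in every array. With so few markers measured, these sums say little about other cell types.

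A total of 337 of 14675 genes (2.3%) differed between the windows at an adjusted p under 0.05 in limma, 140 lower at 4 to 8 h (0.954%) and 197 higher (1.34%). The falls were larger than the rises. Among the genes that fell, the median difference was -0.193, 32 fell by over 0.3 and 12 by over 0.5, the largest by 1.68. Among the genes that rose, the median difference was 0.16, 2 rose by over 0.3 and none by over 0.5, the largest by 0.322. Over all genes the median difference was 0.007. In these bulk cultures, fewer cells that express a gene and less of its RNA per cell cannot be told apart. After quantile normalisation of the arrays the split turned to 149 lower and 116 higher, and without 0.5 h replicate 1 to 103 lower and 93 higher. Whichever single array was left out, 66 of the lower and 56 of the higher genes stayed called, and an exact permutation of 3 against 3 arrays cannot give a p below 0.10.

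Among the 28 lists, that of the immediate-early transcription factors had the most members called lower. Of 43 listed members 31 were measured. Of the 31, 18 fell by 4 to 8 h, none rose and 13 did not pass. The median difference of the list was -0.147, beside 0.007 over all genes. Over the 28 lists 422 of 648 entries were measured, and the counts say nothing about the other entries. Over all genes 0.954% were called lower and 1.34% higher, the shares to set beside the counts of all lists. Members and lists were chosen with earlier results of these data known, so these counts are descriptions with no test. EGR1, a zinc finger factor, had scores of 1.43 at 4 h, 1.54 at 6 h and 1.26 at 8 h, against 2.62 and 2.64 at 0.5 h and 2.59 at 1 h. The windows lay far apart, the 8 h array was the lowest of all, and EGR1 fell by 1.2 ± 0.0504 (SE, adjusted p = 6.7e-10). JUN, a subunit of the AP-1 factor, scored 1.03, 1.11 and 1.31 at 4, 6 and 8 h, against 1.95, 1.91 and 1.86 in the 0.5 h and 1 h arrays. It fell by 0.753 ± 0.0526 (SE, adjusted p = 6.1e-07), and its score at 8 h stood above those at 4 h and 6 h. FOS, the partner of JUN in AP-1, scored 0.25 at 4 h, 0.18 at 6 h and 0.11 at 8 h, against 0.95 and 0.88 at 0.5 h and 0.58 at 1 h. Its 1 h value was already below both 0.5 h values, its 8 h value was the lowest, and it fell by 0.623 ± 0.0671 (SE, adjusted p = 6.4e-05). FOS was not called when the 2 h array joined the first hour and the 12 h array the later window (adjusted p = 0.0976).

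SNAI2, a repressor of epithelial genes, scored 1.36, 1.45 and 1.49 at 4, 6 and 8 h, against 1.76, 1.83 and 1.98 in the 0.5 h and 1 h arrays, and fell by 0.425 ± 0.0475 (SE, adjusted p = 9.6e-05). It was also the only call among 16 measured epithelial and mesenchymal markers (2.3% of all genes were called). That list had a median difference of 0.001, with 7 members below 0 and 9 above. Its members FN1 (-0.084 ± 0.0352, adjusted p = 0.278) and CLDN4 (-0.08 ± 0.0335, adjusted p = 0.281) did not pass. KLF6, a zinc finger factor, scored 1.66, 1.67 and 1.77 at 4, 6 and 8 h, against 2.12, 2.16 and 2.0 in the 0.5 h and 1 h arrays, and fell by 0.395 ± 0.0412 (SE, adjusted p = 4.7e-05). MYC, a regulator of growth and ribosome genes, scored 1.21 at 4 h, 1.33 at 6 h and 1.32 at 8 h, against 1.59 and 1.59 at 0.5 h and 1.82 at 1 h. MYC fell by 0.38 ± 0.0518 (SE, adjusted p = 0.00083), with its highest score at 1 h and its lowest at 4 h. For SNAI2, KLF6 and MYC the windows did not overlap. The windows of genes that did not pass could also lie apart, as for FOSL1 and NAB1, so a lack of overlap adds nothing to a call.

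The other 12 called members of the list were FOSB, CSRNP1, SRF, JUNB, EGR3, KLF2, ETS2, ATF3, IER2, EGR4, FOSL2 and JUND, which fell by 0.124 to 0.332. FOSB, a FOS family member, fell by 0.332 (adjusted p = 6.7e-06) and scored -0.028, 0.005 and -0.008 at 4, 6 and 8 h, against 0.338 and 0.319 at 0.5 h and 0.308 at 1 h. Its later scores, and those of EGR3 (-0.047, -0.071 and -0.08), lay below the medians of these arrays over all probe sets (0.0663 to 0.0787). Falls that end so low cannot be compared in size with those of genes scoring higher. SRF, the serum response factor that itself drives many immediate-early genes, fell by 0.221 (adjusted p = 0.00454). The largest differences that did not pass were those of FOSL1, another FOS family member (-0.146 ± 0.0429, adjusted p = 0.101), and of NAB1, a corepressor of EGR factors (0.108 ± 0.0304, adjusted p = 0.0862). Of the 18, 14 stayed called whichever array was left out. EGR4 lost its call without the 0.5 h replicate 1, 0.5 h replicate 3, 4 h, 6 h or 8 h array (highest adjusted p = 0.173), ETS2 without the 0.5 h replicate 3, 1 h, 4 h or 6 h array (highest adjusted p = 0.113), FOSL2 without the 0.5 h replicate 1, 0.5 h replicate 3, 1 h, 6 h or 8 h array (highest adjusted p = 0.153) and JUND without any 1 of the 6 arrays (highest adjusted p = 0.155).

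**Figure D1:**
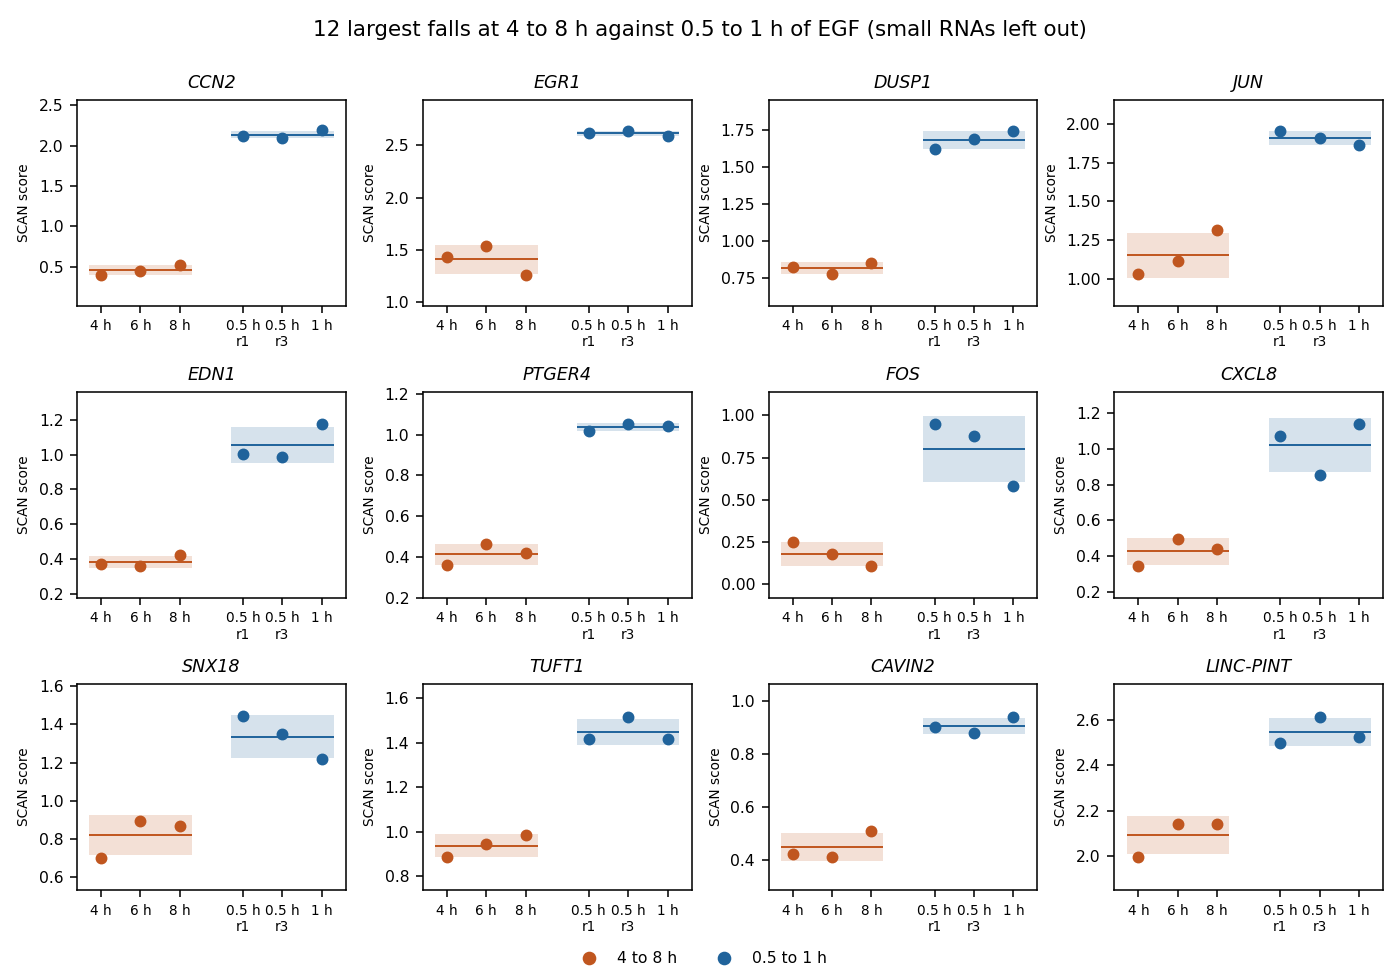
SCAN score (y axis, a separate scale in each panel) of the 12 largest falls, small RNAs left out, in each array (x axis, where r1 and r3 are the replicate numbers at 0.5 h), with orange points for 4 to 8 h and blue points for 0.5 to 1 h. Lines are window means and bands 1 SD (n = 3 arrays). In all 12 genes every 4 to 8 h array lies below every 0.5 to 1 h array, and the gap is widest for CCN2, which fell by 1.68. The genes were picked by their falls in these same arrays, so the separation is no added result.

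In the 250 bases before their start, 2 of the transcription factors that fell carry the CArG box, the element bound by SRF. This box is made of CC, 6 bases of A or T, and GG. Bases further upstream were not searched, and some of the genes that fell had no promoter in the table used. The promoters shown were chosen because they hold the box, so its presence in them is not a result. EGR1 had the largest fall on the list, and SRF is itself on it. The stretches come from the RefSeq promoter table (build GRCh38.p14), both on the plus strand, with the CArG boxes in capitals. That of EGR1 covers chr5:138465344-138465443 and that of SRF covers chr6:43171169-43171268, which ends at the base before the start of the gene.
EGR1: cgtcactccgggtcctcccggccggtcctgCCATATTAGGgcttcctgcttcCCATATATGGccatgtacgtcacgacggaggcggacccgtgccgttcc
SRF: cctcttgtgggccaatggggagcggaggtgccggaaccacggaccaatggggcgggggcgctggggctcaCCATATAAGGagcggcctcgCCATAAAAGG
Each stretch holds 2 boxes within 100 bases.

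Motifs were counted on both strands in the 250 bases before each start. Of the 25 transcription factors and feedback regulators that fell, 19 were in the table, with 23 promoters. A CArG box lay in 2 of these 23 promoters (8.7%), in 4 of 122 promoters of the other genes that fell (3.28%), in 0 of 185 promoters of the genes that rose, and in 407 of all 35116 promoters (1.16%). The cyclic AMP response element TGACGTCA, bound by CREB and ATF factors, lay in 2 of the 23 promoters (8.7%, DUSP1 and JUND), in 5.74% of those of the other falls, in 2.16% of those of the rises and in 1.65% of all promoters. The AP-1 site TGANTCA was in 0 of the 23, in 8.2% of the promoters of other falls, in 6.49% of those of rises and in 6.57% of all. The EGR site GCGTGGGCG was found in THBS1 alone among the genes that fell (0.72% of all promoters). The E2F sites TTTCGCGC and TTTGGCGC were found in TRMT6 alone among the genes that fell, in 1.62% of the promoters of rises and in 0.968% of all. No motif contains another, several promoters can belong to 1 gene, and these shares are descriptions with no test.

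Of 17 measured feedback regulators of ERK and EGFR 7 fell, none rose and 10 did not pass, with a median difference of -0.079. DUSP1, a phosphatase of MAP kinases, scored 0.83 at 4 h, 0.78 at 6 h and 0.85 at 8 h, against 1.62 and 1.69 at 0.5 h and 1.74 at 1 h. The 3 later scores lay close together and far below the early ones, and DUSP1 fell by 0.869 ± 0.035 (SE, adjusted p = 5.8e-10). DUSP5, a nuclear phosphatase of ERK, scored 1.23, 1.43 and 1.39 at 4, 6 and 8 h, against 1.6, 1.73 and 1.7 in the 0.5 h and 1 h arrays, and fell by 0.326 ± 0.0468 (SE, adjusted p = 0.00139). Its lowest score was that at 4 h.

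DUSP6, the cytoplasmic phosphatase of ERK, scored 0.86, 1.08 and 1.13 at 4, 6 and 8 h, against 1.21, 1.22 and 1.3 in the 0.5 h and 1 h arrays. The 6 h and 8 h scores came close to those of the first hour without reaching them, and the fall was 0.221 ± 0.0534 (SE, adjusted p = 0.0407). IER3, a short-lived stress response protein, scored 1.28 at 4 h, 1.41 at 6 h and 1.37 at 8 h, against 1.52 and 1.46 at 0.5 h and 1.75 at 1 h. Its 1 h array stood apart from the other early arrays, and the fall was 0.223 ± 0.0554 (SE, adjusted p = 0.0479). ERRFI1, which binds EGFR and blocks its kinase, fell by 0.195 ± 0.0383 (SE, adjusted p = 0.0131), DUSP4 by 0.203 (adjusted p = 0.0146) and DUSP2 by 0.154 (adjusted p = 0.0125). The later DUSP2 scores (-0.019, -0.003 and 0.021 at 4, 6 and 8 h) also lay below the array medians over all probe sets. DUSP14 had its highest score at 1 h (2.09), and its difference of -0.159 ± 0.0583, adjusted p = 0.204, did not pass, nor did that of DUSP7 (0.095 ± 0.0369, adjusted p = 0.236). DUSP1 and DUSP5 stayed called without any single array, whereas the other 5 did not. Without the 4 h array the DUSP6 fall was 0.138, and without the 1 h array the IER3 fall was also 0.138. DUSP6 lost its call without the 0.5 h replicate 1, 0.5 h replicate 3, 1 h, 4 h or 6 h array (highest adjusted p = 0.141), IER3 without the 0.5 h replicate 1, 1 h, 4 h, 6 h or 8 h array (highest adjusted p = 0.159), DUSP4 without the 0.5 h replicate 3, 1 h or 4 h array (highest adjusted p = 0.0677), ERRFI1 without the 0.5 h replicate 3 array (adjusted p = 0.0683) and DUSP2 without the 0.5 h replicate 3 array (adjusted p = 0.0745).

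Secreted signals of the first hour were lower by 4 to 8 h for some members of each group only. Among 9 measured of 11 listed EGF family ligands 2 fell and none rose. HBEGF, the heparin-binding EGFR ligand, scored 0.65 at 4 h, 0.72 at 6 h and 0.76 at 8 h, against 0.92 and 0.99 at 0.5 h and 1.2 at 1 h. Its peak was at 1 h, and it fell by 0.328 ± 0.0539 (SE, adjusted p = 0.00421). EREG, the ligand epiregulin, scored 1.87, 1.97 and 2.05 at 4, 6 and 8 h, against 2.18, 2.19 and 2.21 in the 0.5 h and 1 h arrays, and fell by 0.234 ± 0.0389 (SE, adjusted p = 0.00453). EGF itself (-0.079 ± 0.0332, adjusted p = 0.279) and EPGN (-0.048 ± 0.0469, adjusted p = 0.717) did not pass.

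Of 17 cytokines and chemokines 3 fell and none rose. CXCL8, the chemokine interleukin 8, scored 0.35 at 4 h, 0.50 at 6 h and 0.44 at 8 h, against 1.07 and 0.85 at 0.5 h and 1.14 at 1 h. The 2 arrays at 0.5 h differed from each other, yet both lay above all later arrays, and CXCL8 fell by 0.595 ± 0.0565 (SE, adjusted p = 1.8e-05). CXCL2, a related chemokine, scored 0.28, 0.44 and 0.48 at 4, 6 and 8 h, against 0.63, 0.71 and 0.64 in the 0.5 h and 1 h arrays, and fell by 0.264 ± 0.0438 (SE, adjusted p = 0.00447). GDF15, a stress-induced cytokine, scored 1.26, 1.44 and 1.56 at 4, 6 and 8 h, against 1.66, 1.66 and 1.64 in the 0.5 h and 1 h arrays. The 4 h score was far below the early ones and the 8 h score near them, and the fall was 0.23 ± 0.0528 (SE, adjusted p = 0.0328). KITLG, the ligand of the receptor KIT, did not pass (0.125 ± 0.0391, adjusted p = 0.129), nor did CXCL5 (0.081 ± 0.0315, adjusted p = 0.237). Without the 4 h array the GDF15 fall was 0.15. GDF15 lost its call without the 0.5 h replicate 1, 0.5 h replicate 3, 1 h, 4 h or 6 h array (highest adjusted p = 0.113), and CXCL2 was not called with the wider windows that include 2 h and 12 h (adjusted p = 0.107).

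Of 8 vascular and prostaglandin signals 3 fell. EDN1, the vasoconstrictor endothelin 1, scored 0.37 at 4 h, 0.36 at 6 h and 0.42 at 8 h, against 1.0 and 0.99 at 0.5 h and 1.18 at 1 h. All later scores were below all early ones by a wide margin, and EDN1 fell by 0.671 ± 0.043 (SE, adjusted p = 2.2e-07). PTGER4, a receptor for prostaglandin E2, scored 0.36, 0.46 and 0.42 at 4, 6 and 8 h, against 1.01, 1.05 and 1.04 in the 0.5 h and 1 h arrays, and fell by 0.624 ± 0.0324 (SE, adjusted p = 1.2e-08). PTGS2, the cyclooxygenase that starts prostaglandin synthesis, scored 1.22, 1.32 and 1.38 at 4, 6 and 8 h, against 1.47, 1.55 and 1.67 in the 0.5 h and 1 h arrays, and fell by 0.256 ± 0.0468 (SE, adjusted p = 0.00815). The terminal synthase PTGES (-0.063 ± 0.038, adjusted p = 0.5) and the protease inhibitor TFPI2 (0.12 ± 0.0342, adjusted p = 0.0913) did not pass. The 3 calls held without any single array.

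Targets of the coactivator YAP and of SRF held the largest fall of all. Of 14 measured, 5 fell and none rose, with a median difference of -0.087. CCN2, a secreted matrix protein also known as connective tissue growth factor, scored 0.40 at 4 h, 0.45 at 6 h and 0.53 at 8 h, against 2.12 and 2.1 at 0.5 h and 2.19 at 1 h. The distance between the windows was many times the spread within either (SD 0.0656 at 4 to 8 h and 0.0464 at 0.5 to 1 h), and CCN2 fell by 1.68 ± 0.0366 (SE, adjusted p = 1e-13). CAVIN2, a coat protein of caveolae, scored 0.42, 0.41 and 0.51 at 4, 6 and 8 h, against 0.90, 0.88 and 0.94 in the 0.5 h and 1 h arrays, and fell by 0.457 ± 0.0332 (SE, adjusted p = 8.5e-07). THBS1, the matrix protein thrombospondin 1, scored 1.93, 1.86 and 1.87 at 4, 6 and 8 h, against 2.27, 2.33 and 2.25 in the 0.5 h and 1 h arrays, and fell by 0.393 ± 0.0322 (SE, adjusted p = 4.1e-06).

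TPM1, an actin-binding tropomyosin, scored 0.95 at 4 h, 0.90 at 6 h and 0.92 at 8 h, against 1.4 and 1.42 at 0.5 h and 1.15 at 1 h, so that the 1 h array lay between the 0.5 h and the later arrays. TPM1 fell by 0.398 ± 0.0533 (SE, adjusted p = 0.00072). Its second probe set gave -0.113 (adjusted p = 0.197), the mean of both -0.256 (adjusted p = 0.00582), and TPM1 was not called with the wider windows (adjusted p = 0.0866). AMOTL2, an angiomotin family member that binds YAP, fell by 0.225 ± 0.03 (SE, adjusted p = 0.00072). ANKRD1, a cardiac ankyrin repeat protein (-0.098 ± 0.0361, adjusted p = 0.207), and VCL, the adhesion protein vinculin (-0.088 ± 0.0423, adjusted p = 0.356), did not pass. The 5 calls held without any single array.

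Other genes among the largest falls belong to several classes. TUFT1, which codes for tuftelin, scored 0.88 at 4 h, 0.94 at 6 h and 0.98 at 8 h, against 1.42 and 1.52 at 0.5 h and 1.42 at 1 h. The windows were apart by more than the spread within either, and TUFT1 fell by 0.512 ± 0.0361 (SE, adjusted p = 6.1e-07). SNX18, a sorting nexin of endocytosis, scored 0.70, 0.90 and 0.87 at 4, 6 and 8 h, against 1.44, 1.35 and 1.22 in the 0.5 h and 1 h arrays, and fell by 0.514 ± 0.0531 (SE, adjusted p = 4.4e-05). RHOB, a small GTPase of endosomes, scored 0.71, 0.79 and 0.83 at 4, 6 and 8 h, against 1.18, 1.18 and 1.21 in the 0.5 h and 1 h arrays, and fell by 0.412 ± 0.0342 (SE, adjusted p = 4.3e-06). The long noncoding RNA LINC-PINT fell by 0.455 ± 0.0417 (SE, adjusted p = 1.3e-05), whereas its second probe set gave -0.032 (adjusted p = 0.823) and the mean of both -0.243 (adjusted p = 0.00187). PLK2, a polo-like kinase, scored 0.57, 0.63 and 0.61 at 4, 6 and 8 h, against 0.97, 0.96 and 1.05 in the 0.5 h and 1 h arrays, and fell by 0.392 ± 0.0326 (SE, adjusted p = 4.3e-06). PLK2 and AEN, a nuclease, were the 2 of 13 p53 targets that fell, while 1, the long noncoding RNA PURPL, rose. Of the 13, 5 had a difference below 0 and 8 above. AEN fell by 0.168 (adjusted p = 0.016), and that call was lost without the 1 h or 6 h array (highest adjusted p = 0.0654).

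Of 14 genes of matrix degradation and invasion 3 fell and 1 rose. HAS2, which synthesises hyaluronan, scored 1.54, 1.45 and 1.39 at 4, 6 and 8 h, against 1.68, 1.66 and 1.82 in the 0.5 h and 1 h arrays. All 3 later scores were below the early ones, with the 8 h score the lowest, and HAS2 fell by 0.258 ± 0.0453 (SE, adjusted p = 0.00626). HAS3, which makes the same polymer, fell by 0.139 (adjusted p = 0.0249), and GLIPR1 by 0.252 (adjusted p = 0.00469). MMP1, the interstitial collagenase, rose by 0.149 (adjusted p = 0.0337). MMP13 (0.106 ± 0.0309, adjusted p = 0.099) and TIMP1 (0.102 ± 0.0382, adjusted p = 0.215) did not pass. HAS3 lost its call without the 0.5 h replicate 3, 4 h, 6 h or 8 h array (highest adjusted p = 0.131) and MMP1 without the 0.5 h replicate 1, 0.5 h replicate 3, 1 h, 4 h or 8 h array (highest adjusted p = 0.139).

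Among 16 growth factor receptors 1 was called, beside 2.3% of all genes. That receptor was EPHA2, an ephrin receptor, which scored 0.96, 1.18 and 1.18 at 4, 6 and 8 h, against 1.25, 1.33 and 1.4 in the 0.5 h and 1 h arrays. The lowest score was again that at 4 h, and EPHA2 fell by 0.225 ± 0.052 (SE, adjusted p = 0.0337). That call was lost without the 0.5 h replicate 3, 1 h or 4 h array (highest adjusted p = 0.127). The lung epithelial marker KRT7, a keratin, fell by 0.173 (adjusted p = 0.016), and lost its call without the 0.5 h replicate 3 or 6 h array (highest adjusted p = 0.0906), while 7 of the 9 markers had a difference above 0.

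Of 12 measured circadian clock genes 3 fell and 1 rose. PER1, a repressor of the clock, scored 0.54 at 4 h, 0.59 at 6 h and 0.56 at 8 h, against 0.89 and 0.80 at 0.5 h and 0.88 at 1 h. The later arrays lay close together and all below the early ones, and PER1 fell by 0.291 ± 0.0321 (SE, adjusted p = 8.3e-05). PER2, its paralogue, scored 0.48, 0.56 and 0.51 at 4, 6 and 8 h, against 0.67, 0.75 and 0.79 in the 0.5 h and 1 h arrays, and fell by 0.217 ± 0.0346 (SE, adjusted p = 0.0034). DBP, an output factor of the clock, fell by 0.124 (adjusted p = 0.0438). BMAL1, the activator of the same loop, scored 1.11, 1.11 and 1.13 at 4, 6 and 8 h, against 0.93, 1.0 and 0.98 in the 0.5 h and 1 h arrays, and rose by 0.147 ± 0.0308 (SE, adjusted p = 0.0183). PER3 (-0.088 ± 0.0312, adjusted p = 0.191) and NPAS2 (0.068 ± 0.0313, adjusted p = 0.338) did not pass. DBP lost its call without the 0.5 h replicate 1, 0.5 h replicate 3, 4 h, 6 h or 8 h array (highest adjusted p = 0.169) and BMAL1 without the 0.5 h replicate 1, 6 h or 8 h array (highest adjusted p = 0.0938). With the wider windows the BMAL1 difference was 0.067 (adjusted p = 0.577) and neither it nor DBP (adjusted p = 0.219) was called.

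**Figure D2:**
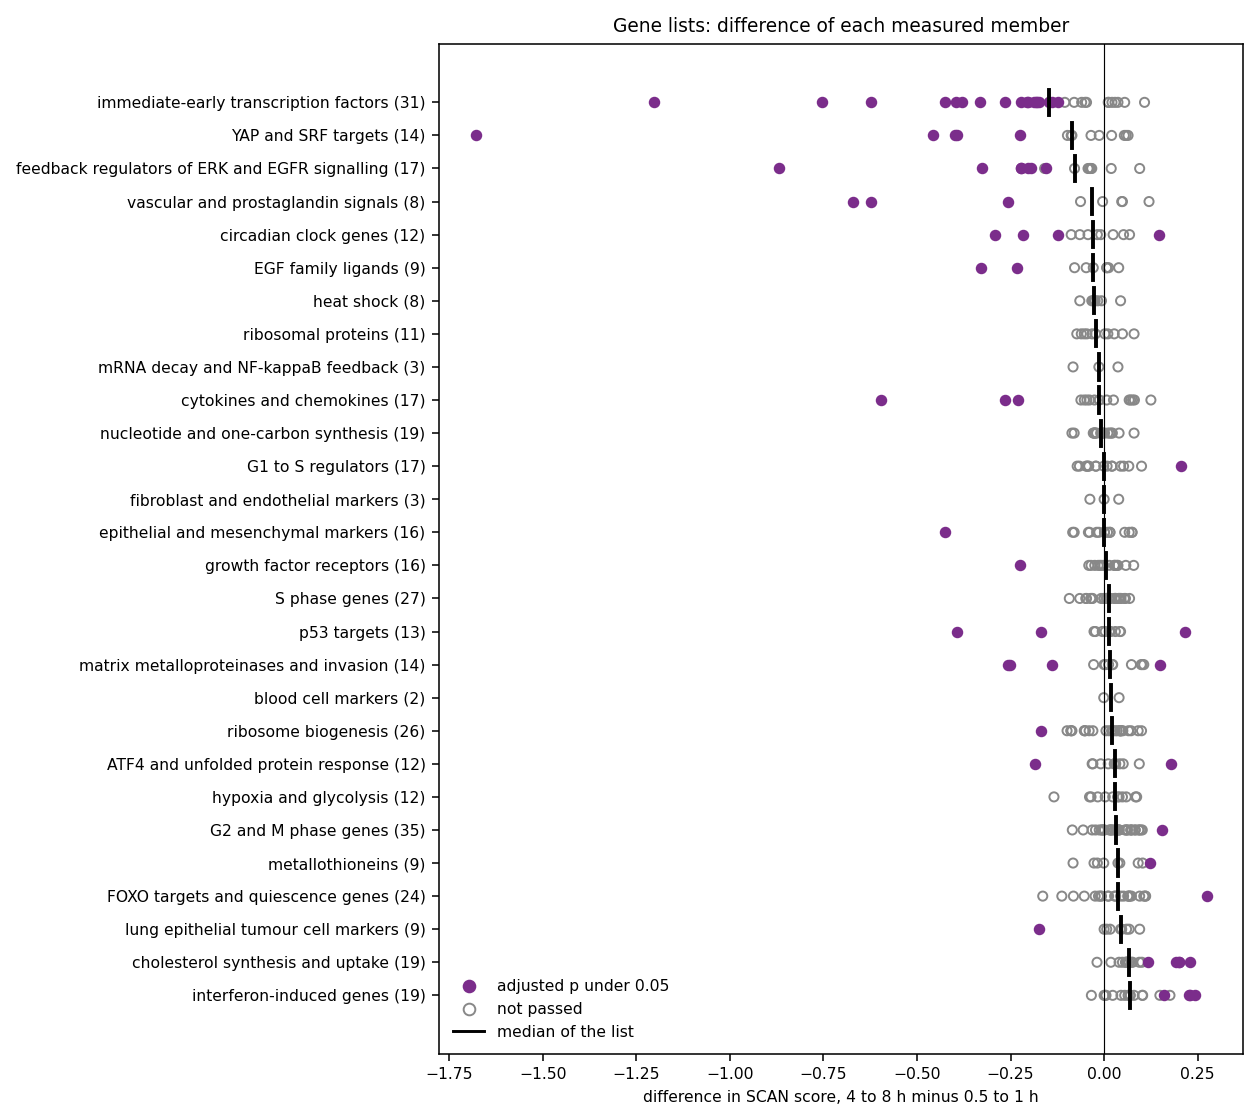
Difference in SCAN score, 4 to 8 h minus 0.5 to 1 h (x axis), of each measured member of the gene lists (y axis, number measured in parentheses); filled points passed an adjusted p of 0.05 over all 14675 genes, open points did not, and black ticks are list medians. Calls of the immediate-early, YAP and SRF and feedback lists all lie left of 0, and those of the cholesterol and interferon lists all lie right of 0.

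The rises at 4 to 8 h were small and spread over many genes. TMEM158, a membrane protein first described as induced by Ras, scored 1.41 at 4 h, 1.35 at 6 h and 1.46 at 8 h, against 1.06 and 1.12 at 0.5 h and 1.07 at 1 h. All later scores exceeded all early ones, and TMEM158 rose by 0.322 ± 0.0336 (SE, adjusted p = 4.7e-05), the largest rise. RSRP1 scored 1.23, 1.23 and 1.14 at 4, 6 and 8 h, against 0.89, 0.94 and 0.86 in the 0.5 h and 1 h arrays, and rose by 0.304 ± 0.0336 (SE, adjusted p = 8.3e-05). TXNIP, the thioredoxin-interacting protein that limits glucose uptake, scored 2.23, 2.04 and 2.08 at 4, 6 and 8 h, against 1.87, 1.84 and 1.82 in the 0.5 h and 1 h arrays, highest at 4 h. TXNIP rose by 0.274 ± 0.041 (SE, adjusted p = 0.00195) and was the only call among 24 FOXO targets and quiescence genes (2.3% of all genes were called). Of that list, SOX4 (-0.164 ± 0.0458, adjusted p = 0.0843) and FOXO3 (-0.113 ± 0.0431, adjusted p = 0.223) had the largest differences that did not pass. The second probe set of FOXO3 gave 0.014 (adjusted p = 0.917).

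Further rises were those of ZNRF2P1 (0.276 (adjusted p = 0.00019)), FAM200C (0.26 (adjusted p = 0.00357)), ZNF221 (0.258 (adjusted p = 0.00037)), IFITM4P (0.239 (adjusted p = 0.00326)) and TMEM45B (0.217 (adjusted p = 0.00231)). ZNRF2P1 and IFITM4P are pseudogenes, and their probes may also take up transcripts of related genes. CEACAM6, a cell adhesion molecule, scored 0.59, 0.53 and 0.50 at 4, 6 and 8 h, against 0.15, 0.36 and 0.35 in the 0.5 h and 1 h arrays. Its lowest score was that of 0.5 h replicate 1, and it rose by 0.254 ± 0.0463 (SE, adjusted p = 0.00814). Of the long noncoding RNAs, CRNDE rose by 0.218 ± 0.0296 (SE, adjusted p = 0.00083) and PURPL, which is regulated by p53, by 0.217 ± 0.0432 (SE, adjusted p = 0.0143). With the wider windows ZNRF2P1 (0.179, adjusted p = 0.124) and IFITM4P (adjusted p = 0.0709) were not called.

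Of 19 measured genes of cholesterol synthesis and uptake 5 rose and none fell. A total of 18 had a difference above 0, beside 8275 of all 14675 genes, and the median of the list was 0.067. HSD17B7, a late enzyme of the pathway, scored 1.14 at 4 h, 1.18 at 6 h and 1.25 at 8 h, against 0.89 and 1.02 at 0.5 h and 0.98 at 1 h. The windows did not overlap, and HSD17B7 rose by 0.23 ± 0.0386 (SE, adjusted p = 0.00467). EBP, a sterol isomerase, scored 1.46, 1.53 and 1.5 at 4, 6 and 8 h, against 1.26, 1.31 and 1.31 in the 0.5 h and 1 h arrays, and rose by 0.201 ± 0.0313 (SE, adjusted p = 0.00284). ACAT2, which joins acetyl groups at the entry to the pathway, scored 1.61, 1.62 and 1.62 at 4, 6 and 8 h, against 1.4, 1.36 and 1.49 in the 0.5 h and 1 h arrays, and rose by 0.199 ± 0.0342 (SE, adjusted p = 0.00529). The 3 later scores of ACAT2 were almost equal, and its 1 h score was the highest of the early ones. FDPS, the farnesyl diphosphate synthase, rose by 0.191 ± 0.0351 (SE, adjusted p = 0.00834), and its second probe set gave 0.205 (adjusted p = 0.00718). MVD, a decarboxylase of the mevalonate route, rose by 0.118 (adjusted p = 0.0451). IDI1 (0.101 ± 0.0399, adjusted p = 0.245) and STARD4 (0.094 ± 0.0363, adjusted p = 0.231) did not pass. MVD lost its call without any 1 of the 6 arrays (highest adjusted p = 0.142), and when each array was centred on its median (adjusted p = 0.0663) or quantile normalised (adjusted p = 0.112).

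Of 19 interferon-induced genes 4 rose and none fell, with a median difference of 0.07 and 18 above 0. IFI44L scored 1.79 at 4 h, 1.72 at 6 h and 1.96 at 8 h, against 1.62 and 1.6 at 0.5 h and 1.51 at 1 h. Its 8 h score was the highest, its 1 h score the lowest, and it rose by 0.244 ± 0.0492 (SE, adjusted p = 0.0147). SAMD9, an antiviral factor, scored 1.72, 1.65 and 1.73 at 4, 6 and 8 h, against 1.51, 1.43 and 1.46 in the 0.5 h and 1 h arrays, and rose by 0.228 ± 0.0337 (SE, adjusted p = 0.00174). SAMD9L, the neighbouring paralogue on the same chromosome, rose by 0.23 ± 0.0408 (SE, adjusted p = 0.0067). IRF9, the DNA-binding subunit of the interferon-activated factor, rose by 0.159 (adjusted p = 0.0196). XAF1 (0.176 ± 0.052, adjusted p = 0.103) and BST2 (0.149 ± 0.0662, adjusted p = 0.309) did not pass. IFI44L lost its call without the 1 h array (adjusted p = 0.0701) and IRF9 without the 0.5 h replicate 3, 1 h or 8 h array (highest adjusted p = 0.0862) and after quantile normalisation (adjusted p = 0.0574).

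**Figure D3:**
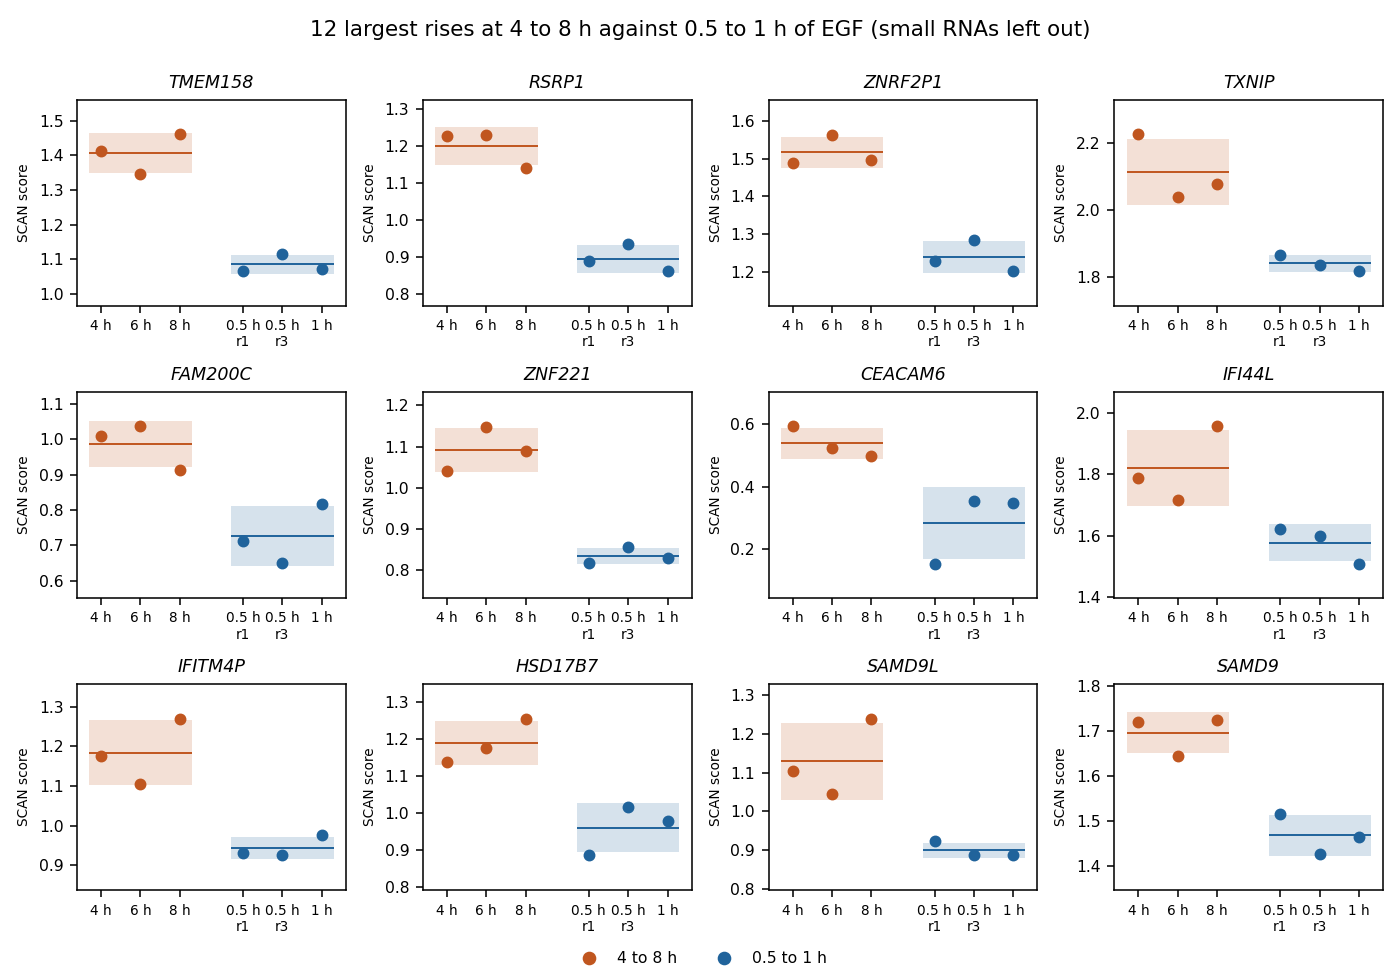
SCAN score (y axis, a separate scale in each panel) of the 12 largest rises, small RNAs left out, in each array (x axis, where r1 and r3 are the replicate numbers at 0.5 h), with orange points for 4 to 8 h and blue points for 0.5 to 1 h. Lines are window means and bands 1 SD (n = 3 arrays). In all 12 genes every 4 to 8 h array lies above every 0.5 to 1 h array, and the rises span 0.228 (SAMD9) to 0.322 (TMEM158). The genes were picked by their rises in these same arrays, so the separation is no added result.

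Genes of cell division and growth were for the most part not called at 4 to 8 h, which also holds for 14338 of all 14675 genes. Over all genes 2.3% were called and 14.5% were at an unadjusted p under 0.05. Of 27 S phase genes limma called none and 2 were at an unadjusted p under 0.05, and the largest differences were those of CLSPN (-0.093 ± 0.0314, adjusted p = 0.165) and MCM6 (0.068 ± 0.0363, adjusted p = 0.424). The second probe set of CLSPN gave -0.019 (adjusted p = 0.89). Of 17 regulators of the step from G1 to S 3 were at an unadjusted p under 0.05 and 1 rose. That gene was E2F7, a repressing member of the E2F family, which scored 1.7, 1.7 and 1.63 at 4, 6 and 8 h, against 1.4, 1.45 and 1.55 in the 0.5 h and 1 h arrays, and rose by 0.206 ± 0.0376 (SE, adjusted p = 0.00814). E2F7 was not called with the wider windows (adjusted p = 0.0976). Of 35 G2 and M phase genes 27 had a difference above 0 (8275 of all 14675 genes did) and 10 were at an unadjusted p under 0.05 (14.5% of all genes were). The only call among them was CENPA, the histone variant of centromeres, which rose by 0.156 (adjusted p = 0.0125). CENPA lost its call without the 0.5 h replicate 3 or 6 h array (highest adjusted p = 0.0736). KIF20A (0.098 ± 0.031, adjusted p = 0.134) and MAD2L1 (0.102 ± 0.0337, adjusted p = 0.157) did not pass. Of 26 ribosome biogenesis genes 8 were at an unadjusted p under 0.05, and the only call was NCL, the nucleolar protein nucleolin, which fell by 0.169 (adjusted p = 0.0211) and lost its call without the 0.5 h replicate 3, 1 h, 6 h or 8 h array (highest adjusted p = 0.101). The limma fit made no call among 11 ribosomal proteins and 8 heat shock genes, where 0 genes reached an unadjusted p under 0.05. It made none either among 19 genes of nucleotide and one-carbon synthesis (3 at an unadjusted p under 0.05), 12 hypoxia and glycolysis genes (3) and 3 genes of mRNA decay and NF-kappaB feedback (1). Of the last list only 3 of 16 genes were measured, so the group as a whole was not covered.

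Of 12 genes of ATF4 and the unfolded protein response 1 fell and 1 rose, beside 0.954% and 1.34% of all genes. DDIT3, a stress-induced factor, scored 1.09, 1.15 and 1.1 at 4, 6 and 8 h, against 1.33, 1.35 and 1.22 in the 0.5 h and 1 h arrays, and fell by 0.186 ± 0.0358 (SE, adjusted p = 0.0115). DDIT4, an inhibitor of the growth kinase complex mTORC1, scored 0.83, 0.84 and 0.89 at 4, 6 and 8 h, against 0.67, 0.72 and 0.63 in the 0.5 h and 1 h arrays, and rose by 0.18 ± 0.0322 (SE, adjusted p = 0.00712). DDIT3 lost its call without the 0.5 h replicate 1 or 0.5 h replicate 3 array (highest adjusted p = 0.0697), and with the wider windows neither DDIT3 (adjusted p = 0.268) nor DDIT4 (0.11, adjusted p = 0.587) was called. Of 9 metallothioneins, small metal-binding proteins of near-identical sequence, only MT1F was called (2.3% of all genes were). MT1F rose by 0.123 (adjusted p = 0.0488), and lost that call without any 1 of the 6 arrays (highest adjusted p = 0.166) and with the wider windows (0.068, adjusted p = 0.51).

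The first hour was not uniform. Comparing 1 h with 0.5 h in a fit over all 15 arrays, in which the lone 1 h array is assumed to vary like the replicated times, called 40 genes (0.273%), 29 higher and 11 lower at 1 h. Of these, 10 were also called between the windows. FOS and TPM1 were lower at 1 h and lower again at 4 to 8 h: FOS by 0.332 at 1 h (adjusted p = 0.00128) and TPM1 by 0.264 (adjusted p = 0.0131). HBEGF, IER3 and MYC were higher at 1 h than at 0.5 h and then lower at 4 to 8 h, as were CSRNP1 and RND3. IER3 was higher at 1 h by 0.255 (adjusted p = 0.0118), HBEGF by 0.247 (adjusted p = 0.0308) and MYC by 0.228 (adjusted p = 0.0308). Without 0.5 h replicate 1 these calls were lost for MYC (adjusted p = 0.183), HBEGF (adjusted p = 0.241) and TPM1 (adjusted p = 0.065), and without 0.5 h replicate 3 for MYC (adjusted p = 0.101), IER3 (adjusted p = 0.0844) and TPM1 (adjusted p = 0.0738). MYC also lost its call after quantile normalisation (adjusted p = 0.0648).

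Several genes differed between 1 h and 0.5 h and were not called between the windows. LINC00312, a long noncoding RNA, had a difference of -0.267 between the windows (adjusted p = 0.0894), and its second probe set gave -0.036 (adjusted p = 0.764). That second probe set was not compared between 1 h and 0.5 h. LINC00312 scored 0.10 at 4 h, 0.14 at 6 h and 0.20 at 8 h, against 0.31 and 0.25 at 0.5 h and 0.68 at 1 h. Its 1 h score was above all others, by 0.403 over 0.5 h (adjusted p = 0.00051). ZNF93, a zinc finger protein, was higher at 1 h by 0.329 (adjusted p = 0.00144), FERMT2, the adhesion protein kindlin 2, by 0.302 (adjusted p = 0.00234) and KRTAP2-3 by 0.303 (adjusted p = 0.0249). CLDN1, a tight junction protein, scored 1.14, 0.86 and 0.86 at 4, 6 and 8 h, against 0.78, 0.85 and 1.18 in the 0.5 h and 1 h arrays, so that the 1 h and 4 h arrays were both high and the others low. DHRS2 was lower at 1 h by 0.261 (adjusted p = 0.0108), LINC00310 by 0.333 (adjusted p = 0.0187) and BST2 by 0.25 (adjusted p = 0.0308). Calls were lost without 0.5 h replicate 1 for KRTAP2-3 (adjusted p = 0.205), CLDN1 (adjusted p = 0.205), DHRS2 (adjusted p = 0.065) and BST2 (adjusted p = 0.26), and without 0.5 h replicate 3 for CLDN1 (adjusted p = 0.0576) and LINC00310 (adjusted p = 0.108).

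Within the later window, the fallen genes were most often lowest at 4 h. Of the 140, 70 (50.0%) had the lowest of their 3 later scores at 4 h, 40 at 6 h and 30 at 8 h, whereas over all genes 32.6% were lowest at 4 h. This split is a description of single arrays with no test, and the position of the 4 h array on the second component was given above. Comparing 8 h with 4 h, which have 1 array each, with the spread taken from the replicated times in the fit over all 15 arrays, called 7 genes (0.0477%), 6 higher and 1 lower at 8 h, with 1403 genes at an unadjusted p under 0.05. JUN was higher at 8 h by 0.281 (adjusted p = 0.0424) and DUSP6 by 0.273 (adjusted p = 0.0424), and both had fallen between the windows. After quantile normalisation neither was called (adjusted p = 0.0535 for each). GDF15 was 0.3 higher at 8 h and did not pass (adjusted p = 0.0839).

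MT1X, a metallothionein, scored 1.67 at 4 h, 1.36 at 6 h and 1.23 at 8 h, against 1.28 and 1.31 at 0.5 h and 1.39 at 1 h. It was high at 4 h alone, and lower in the 8 h array than in the 4 h array by 0.447 (adjusted p = 0.0206, with the spread of other hours). The rest of the rises at 8 h over 4 h were those of ZNG1A (0.362, adjusted p = 0.00806), STH (0.309, adjusted p = 0.0424), MT4 (0.298, adjusted p = 0.0424) and AVIL (0.291, adjusted p = 0.0424), none of them called between the windows. After quantile normalisation AVIL, MT4 (adjusted p = 0.0535 for each) and STH (adjusted p = 0.0754) were not called. ZNG1A has near-identical copies in the genome, as have the metallothioneins, so their probes may not separate them.

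**Figure D4:**
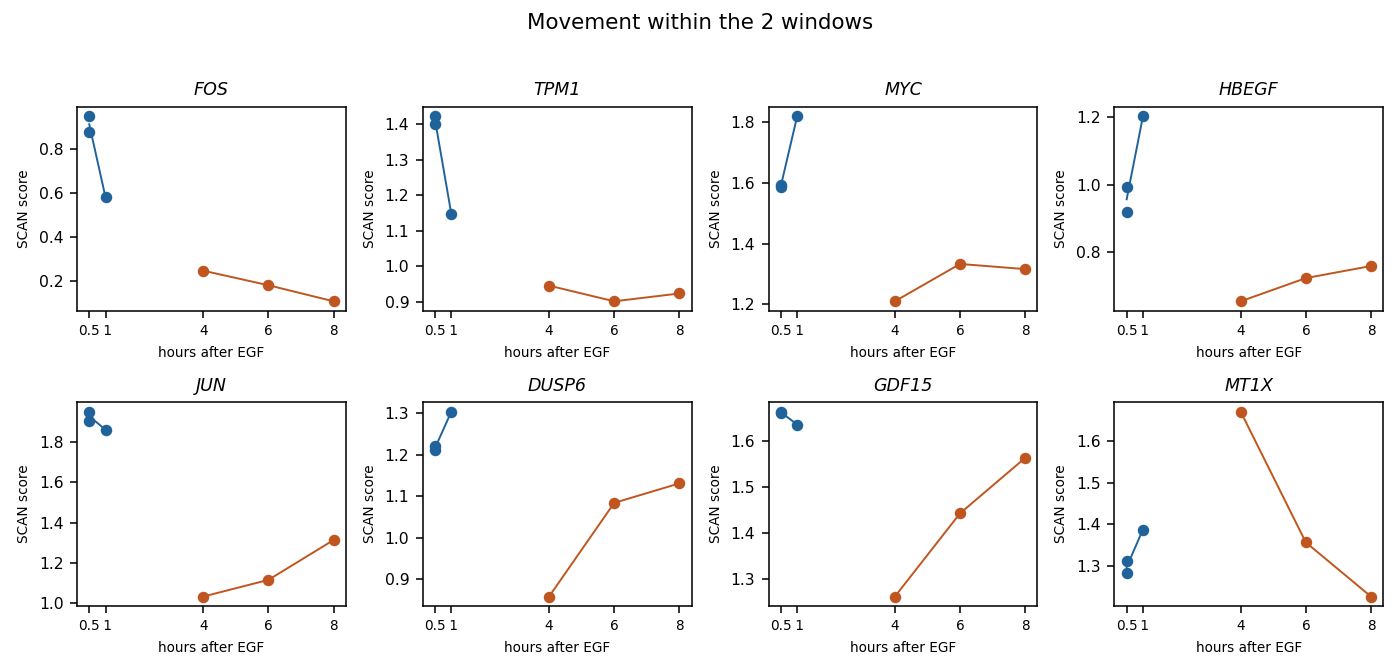
SCAN score (y axis, a separate scale in each panel) against hours after EGF (x axis) for 8 genes that moved within a window or stood apart in it; points are single arrays, blue for 0.5 and 1 h and orange for 4, 6 and 8 h, and lines join means at each hour within a window. FOS and TPM1 were lower at 1 h than at 0.5 h, MYC and HBEGF higher, JUN, DUSP6 and GDF15 were lowest at 4 h, and MT1X was highest at 4 h.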

How the data were processed

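H1975 cells were hybridised to Human Gene 2.0 ST arrays. The authors deposited a SCAN score for each of 39937 probe sets, normalised within each array with probes mapped by the manufacturer's annotation, and left out arrays they judged outliers. The SCAN version was not given in the sources used here. The platform annotation names 15426 probe sets with 1 gene each and 24511 with none. For 534 genes with several probe sets, the one with the highest mean was kept, giving 14675 genes. No dim genes were removed.

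Windows were compared over 6 arrays by moderated linear models (limma 3.58.1 under R 4.3.3, default eBayes settings, 4 residual degrees of freedom, two-sided, Benjamini-Hochberg adjustment over all genes), and hours within a window with time as a factor over 15 arrays (5 residual degrees of freedom). The scripts were tested on simulated data. Array number limits the precision.

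Named genes are the 15 largest called falls and rises, up to 6 called and 2 other members of each of 28 lists, and the 5 largest calls within each window per direction, leaving out small RNA, uncharacterised, read-through and olfactory receptor symbols. Further list members, CSRNP1 and RND3 were named after their values were seen. Members and lists were chosen with earlier results of these data known. Alternatives covered the spread, a replicate block, scaling, dim genes, probe sets, moderation, window limits and each array left out. Nothing in the labels says that arrays came from separate cultures.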

Additional observations from a re-analysis of the deposited data

How the results depend on the processing

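No difference of a named gene called between the windows changed sign under the alternatives run. The count of 337 genes called between the windows was 175 to 255 with single arrays left out (175 without 0.5 h replicate 3, which leaves only arrays numbered 1, 196 without 0.5 h replicate 1, 202 without 6 h, 222 without 4 h), 226 with the 2 h and 12 h arrays joined to the windows, and 563 when all 39937 probe sets were tested, a larger set of features. It was 489 with the spread shared over 15 arrays, 313 after centring, 265 after quantile normalisation, 379 in genes at or above the median level, 341 with probe sets averaged and 333 with a trended, robust prior. With replicate number as a block it was 384. Deviations of 24 h and 48 h arrays of the same number correlated at 0.01 to 0.03, so the numbers were not taken to pair arrays. The 40 genes called at 1 h against 0.5 h became 19 with the block (HBEGF, adjusted p = 0.0688, IER3, 0.051, CLDN1, 0.0681, KRTAP2-3, 0.0734, LINC00310, 0.052, and BST2, 0.113, among those not called) and 11 to 26 without one 0.5 h array, and the 7 called at 8 h against 4 h became 2 with the block (JUN, adjusted p = 0.0875, and DUSP6, AVIL, MT4 and STH, 0.0809 each, not called) and 2 after quantile normalisation. The cause was not tested. Of 67 named genes called between the windows, 19 lost the call without some single array, 15 with the joined windows (among them DUSP6, adjusted p = 0.18, GDF15, 0.159, GLIPR1, 0.0589, and MMP1, 0.195), 8 with all probe sets, 6 with the trended prior (DBP, DUSP6, EPHA2, GDF15, IER3 and IFI44L), 4 after quantile normalisation, 2 after centring and 2 with the block (MMP1 and MVD).

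Single arrays at 1 h, 4 h, 6 h and 8 h, scores near the array median and cultures kept without serum for differing times limit all comparisons. Whether 1 unit of the score is the same fold in each gene is unknown.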

Other observations

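Precursors of microRNAs, which the rule for named genes left out, were also among the differences between the windows, and those named here were chosen after their values were seen. Of 934 precursors measured 14 fell and 6 rose (2.14% called, beside 2.3% of all genes), with differences from -0.862 to 0.274. The array measures precursor or host transcripts, and no level of a mature microRNA was measured. MIR554 lies within TUFT1 (chr1:151545796-151545891 in GRCh38.p14), and scored 0.22 at 4 h, 0.25 at 6 h and 0.26 at 8 h, against 1.18 and 1.33 at 0.5 h and 0.81 at 1 h. It was high at 0.5 h, between the windows at 1 h and low later, and fell by 0.862 ± 0.0828 (SE, adjusted p = 1.9e-05), beside the fall of TUFT1 of 0.512. MIR2355, within KLF7, scored 0.14, 0.18 and 0.36 at 4, 6 and 8 h, against 0.70, 0.73 and 0.76 in the 0.5 h and 1 h arrays, and fell by 0.509 ± 0.0454 (SE, adjusted p = 9.1e-06), while KLF7 itself had a difference of -0.164 ± 0.0442, adjusted p = 0.0705. MIR221, within the noncoding RNA MIR222HG, scored 1.68, 1.9 and 1.92 at 4, 6 and 8 h, against 2.26, 2.28 and 2.18 in the 0.5 h and 1 h arrays, and fell by 0.403 ± 0.0505 (SE, adjusted p = 0.00035). MIR31 rose by 0.274 ± 0.0493 (SE, adjusted p = 0.00747), and its host MIR31HG by 0.163 ± 0.0366 (SE, adjusted p = 0.0297).

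The mature sequences that these 3 falling precursors carry in the RefSeq table are shown so that their targets can be looked up, with the seed, bases 2 to 8, in capitals. No seed is shared between them.
hsa-miR-554: gCUAGUCCugacucagccagu
hsa-miR-2355-3p: aUUGUCCUugcuguuuggagau
hsa-miR-2355-5p: aUCCCCAGauacaauggacaa
hsa-miR-221-3p: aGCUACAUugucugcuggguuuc
Of 24511 probe sets with no gene name 149 fell and 174 rose, with differences from -1.105 to 0.392, when all probe sets were tested. The 323 called are 1.32% of them, beside 1.41% of all 39937 probe sets.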
